A study of Homo sapiens with 6 samples.

Results

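The mRNAs described here encode 6 proteins that bind AU-rich elements, short stretches rich in adenine and uridine in the 3′ untranslated region of unstable mRNAs. They were taken by gene name from the count table, where all 6 were found among 58735 genes, and all 6 passed the filter on low counts. ZFP36, also called tristetraprolin, ZFP36L1 and ZFP36L2 form 1 zinc-finger family, ELAVL1 is the protein HuR, KHSRP is the KH-domain protein KSRP, and HNRNPD is AUF1. The libraries come from Het1A, a human oesophageal epithelial line immortalised with SV40 large T antigen. All cells were kept in medium with 1% serum from 48 h before the first exposure to the end. The 3 bile acid libraries are from cells given medium of pH 4.0 with 100 µM of mixed bile acids (glycocholic, taurocholic, glycodeoxycholic, glycochenodeoxycholic and deoxycholic acid) for 10 min on each of 5 days. The 3 control libraries are from cells given 0.1% DMSO, and the labels do not say that their medium was acidified, so that acid and bile acids cannot be told apart. Cells were collected for RNA 24 h after the last of the exposures. The labels number biological replicates 1 to 3 per group and do not state how their cultures were kept apart, so p-values measure the spread between these libraries, which may be technical.

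Cells use AU-rich elements to set how long an mRNA lasts. The 3 ZFP36 proteins bind the element through a pair of CCCH zinc fingers and recruit the CCR4-NOT deadenylase, which shortens the poly(A) tail and starts decay. KHSRP also recruits decay enzymes, ELAVL1 mostly stabilises the mRNAs it binds, and HNRNPD can do either, depending on its isoform and on the cell. ZFP36 is itself an early response gene, its mRNA carries AU-rich elements, and its protein is switched off by the p38 and MK2 kinases through 14-3-3 binding. In epithelia the ZFP36 proteins are known for restraining cytokine, cyclooxygenase and growth factor mRNAs.

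The first sequences are the family's own AU-rich sites, shown because a ZFP36 protein can bind the mRNAs of its own family. They were read from GENCODE release 29 transcripts on GRCh38, searched on the mRNA strand for TATTTAT, the core of the family's binding site with T for U, and are written with 8 flanking bases on each side and the core in capitals. In ZFP36 the 3′ untranslated region of 713 bases held 3 of these cores within a short stretch, at chr19:39409184-39409206, chr19:39409199-39409221 and chr19:39409224-39409246 on the plus strand.
ZFP36 site 1: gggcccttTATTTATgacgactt
ZFP36 site 2: gacgacttTATTTATtctaatat
ZFP36 site 3: ttttatagTATTTATatatattg

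ZFP36L1 and ZFP36L2 also held 3 cores each, in 3′ untranslated regions of 1871 and 1917 bases. The ZFP36L1 sites lie on the minus strand at chr14:68788339-68788361, chr14:68788297-68788319 and chr14:68788080-68788102. The ZFP36L2 sites lie on the minus strand at chr2:43223451-43223473, chr2:43223403-43223425 and chr2:43223215-43223237.
ZFP36L1 site 1: tcaaaacgTATTTATtgccaaac
ZFP36L1 site 2: tttgttcaTATTTATcgggatga
ZFP36L1 site 3: tgttggatTATTTATtttagaaa
ZFP36L2 site 1: atttaactTATTTATtatcttgt
ZFP36L2 site 2: tcatactgTATTTATcaagtatg
ZFP36L2 site 3: gtatgtaaTATTTATttcattaa

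ELAVL1 held 5 cores, the last pair of them overlapping, in a region of 4904 bases. The window of the fourth, at chr19:7961835-7961857 on the minus strand, shows the repeated form. KHSRP, with 764 bases, and HNRNPD, with 1687 bases, held none.
ELAVL1 site 4: tatttatgTATTTATttattgaa

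Of the 14281 tested protein-coding genes with a coding transcript in the basic set, 32.1% held at least 1 core and 5.92% held 3 or more, so that the 3 family members and ELAVL1 fall in the latter class. A match is a run of letters and not a measured binding site.

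Library totals ranged from 21006677 to 28497721 counts, where 3 counts correspond to 0.104 to 0.168 CPM, and this floor covers counting error only. CPM, counts scaled to a common library size with TMM scaling for composition, is the level used unless FPKM is named. Control library 2 stood apart from the other 5, with 19101 genes detected against 24174 to 25337. Relative to the mean of controls 1 and 3 its median log2 difference was 0.87 over 1707 genes shorter than 2500 bp and −0.42 over 6333 genes longer than 5000 bp, among tested genes averaging at least 5 CPM. Of 10 squamous epithelial markers 3 could be tested, and their summed level was 26.7 to 62.6 CPM in control and 32.4 to 66.9 CPM in bile acid libraries, mostly from ITGA6 and CDH1. KRT4 and KRT13 were at 0 in every library, and TP63, KRT5 and KRT14 had at most 12 counts in any library, so the defining squamous keratins were at 0 or low in these cells. KRT8, KRT18 and KRT19 made up nearly all of the columnar sum, 571 to 1460 CPM in control and 856 to 950 CPM in bile acid libraries, with the highest value in control 2. Fibroblast markers summed to 166 to 299 CPM and 193 to 323 CPM, leukocyte markers to 9.93 to 13.0 CPM and 13.0 to 16.8 CPM, and endothelial markers to 0.336 to 2.12 CPM and 1.07 to 1.95 CPM, in control and bile acid libraries. PTPRC, CD3E, CD3D, LYZ, CDH5 and COL3A1 were at 0 in every library. The part of these levels in the results was not tested. In bulk RNA, fewer cells with an mRNA and less of it per cell cannot be told apart.

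All 3 ZFP36 family mRNAs were higher in every bile acid library than in every control library, by 2.22-fold to 3.67-fold in the fit, while ELAVL1, KHSRP and HNRNPD overlapped between the groups. The quasi-likelihood test of edgeR called 0 of the 6 members at an adjusted p under 0.05, as it called 0% of all 17743 genes tested. DESeq2 on the same counts called ZFP36 alone among the members, where it called 0.107% of all genes. Groups without overlap and with bile acid higher occurred in 5.29% of all genes tested and in 3 of the 6 members. The members were chosen with earlier results of these data known, so that count is not independent evidence.

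**Figure D1:**
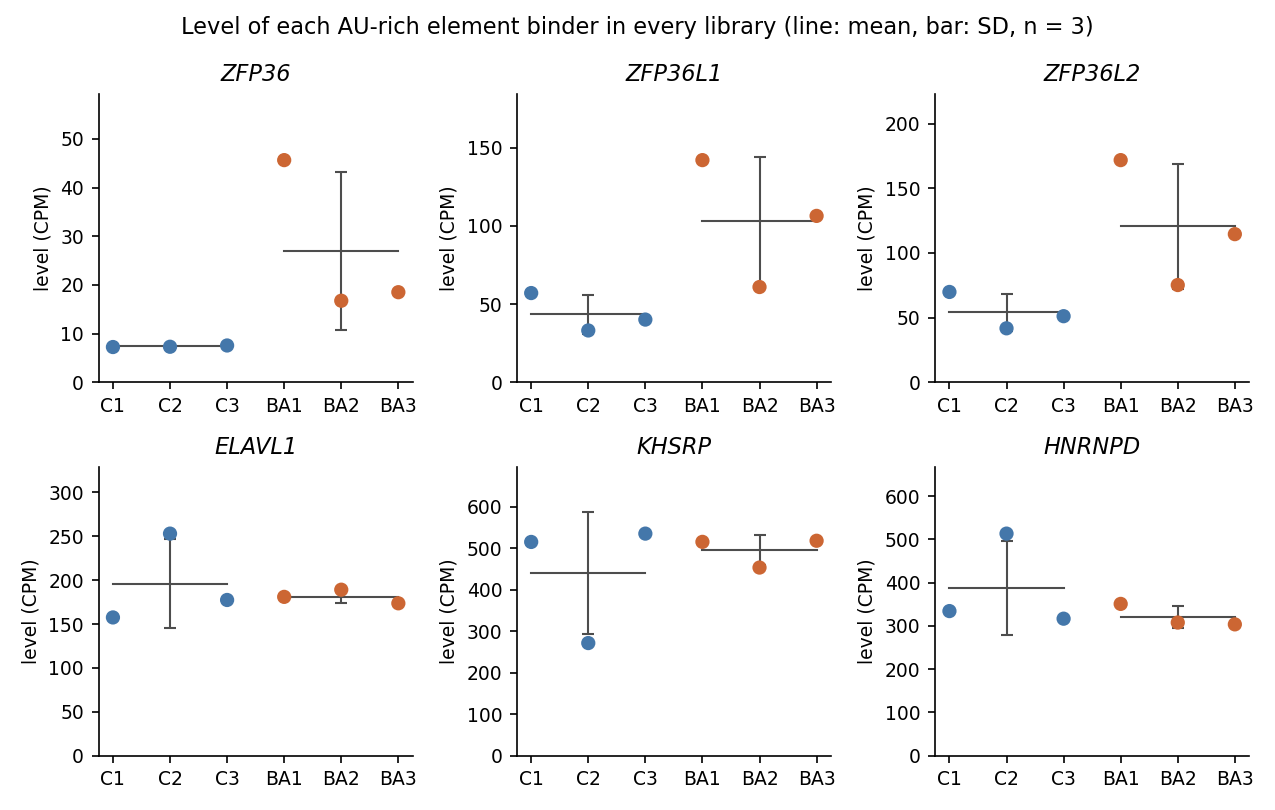
Level of each of the 6 mRNAs in CPM (y axis, from 0) in control libraries 1 to 3 (C1 to C3, blue) and bile acid libraries 1 to 3 (BA1 to BA3, orange), with the group mean as a line and the SD as a bar (n = 3). The ZFP36 controls sit between 7.22 and 7.54 CPM below all bile acid points, and control 2 is the outlying point for ELAVL1, KHSRP and HNRNPD.

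ZFP36, the best studied mRNA-destabilising member of the family (ENSG00000128016, chromosome 19, 39406813 to 39409412, plus strand, GRCh38), had 201, 130 and 177 counts in control libraries 1 to 3. It had 1280, 458 and 532 counts in bile acid libraries 1 to 3. Scaled, these were 7.22, 7.28 and 7.54 CPM against 45.7, 16.7 and 18.5 CPM. The controls lay close together, control 2 included, while bile acid library 1 was far above bile acid libraries 2 and 3. The means were 27.0 ± 16.2 CPM in bile acid and 7.35 ± 0.170 CPM in control libraries (SD, n = 3). The log2 fold change was 1.87 (SE 0.41), a 3.67-fold difference with a 95% interval of 1.90 to 7.08. In the edgeR results it ranked 15 of 17743 genes by p-value, and its adjusted p was 0.911 (unadjusted p = 0.00210). In DESeq2 the adjusted p was 0.0242 (range over 23 alternatives 0.0242 to 1.00). The authors' deposited table gives ZFP36 a log2 fold change of 1.83 (SE 0.42) with an adjusted p of 0.0230, among the 19 genes that table calls out of 22156 with a p-value (0.0858%). Without bile acid library 1 the log2 fold change was 1.27 in edgeR, and the DESeq2 call was lost (adjusted p = 0.0706), where 0.00545% of all genes were called. The unadjusted p of ZFP36 in DESeq2 was 1.54e-05 in that setting and 1.90e-05 with all libraries. That loss thus came with the adjustment over all genes. The DESeq2 call was also lost without control library 2 (adjusted p = 0.122, unadjusted p = 0.00188), although the log2 fold change was 1.88 there.

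ZFP36L1, which acts on the same kind of element and is known from differentiation and growth control (ENSG00000185650, chromosome 14, 68787660 to 68796253, minus strand), measured 57.0, 33.1 and 40.1 CPM in control libraries 1 to 3. It measured 142, 60.9 and 106 CPM in bile acid libraries 1 to 3. The lowest bile acid library, number 2, lay just above the highest control, number 1. The log2 fold change was 1.25 (SE 0.35), a 2.38-fold difference with a 95% interval of 1.35 to 4.19 (edgeR, adjusted p = 0.911; DESeq2, adjusted p = 0.306). It was 0.95 without bile acid library 1. In DESeq2 without control library 2 it was 1.10 with an adjusted p of 0.0267 (range over 23 alternatives 0.0267 to 1.00). In that setting DESeq2 called 0.865% of all genes tested, and 0.783% of all genes tested were called higher in bile acid. In edgeR without that library 0 members and 0.00547% of all genes were called.

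ZFP36L2, the third family member, known for its part in lymphocyte and oocyte development (ENSG00000152518, chromosome 2, 43222402 to 43226609, minus strand), followed the same order of libraries as ZFP36L1. It measured 69.8, 41.7 and 51.0 CPM in control libraries 1 to 3, and 172, 75.2 and 115 CPM in bile acid libraries 1 to 3. Again bile acid library 2 was the lowest of its group and control 1 the highest of its own, with a small gap between them. The log2 fold change was 1.15 (SE 0.34), a 2.22-fold difference with a 95% interval of 1.28 to 3.86 (edgeR, adjusted p = 0.911; DESeq2, adjusted p = 0.403). It was 0.81 without bile acid library 1, and in DESeq2 without control library 2 it was 1.01 with an adjusted p of 0.0461 (range over 23 alternatives 0.0461 to 1.00). In the authors' deposited table ZFP36L1 has a log2 fold change of 1.26 (adjusted p = 0.284) and ZFP36L2 one of 1.20 (adjusted p = 0.418).

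ELAVL1, which mostly protects the mRNAs it binds (ENSG00000066044, chromosome 19, 7958579 to 8005659, minus strand), measured 157, 253 and 177 CPM in control libraries 1 to 3. It measured 181, 189 and 174 CPM in bile acid libraries. The bile acid libraries lay close together and inside the range of the controls, which control 2 widened at its upper end. The log2 fold change was −0.11 (SE 0.22, 95% interval −0.63 to 0.41; edgeR, adjusted p = 0.938). Without control library 2 the sign turned, to 0.12. The interval stays within 1 log2 unit on either side of 0, and differences inside it could not be resolved with these libraries.

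KHSRP, which binds AU-rich elements through its KH domains and recruits decay enzymes (ENSG00000088247, chromosome 19, 6413348 to 6424794, minus strand), measured 515, 272 and 535 CPM in control libraries 1 to 3. It measured 516, 454 and 518 CPM in bile acid libraries. Control 2 stood well below the other 5 libraries, with 4849 counts where controls 1 and 3 had 14339 and 12566. The log2 fold change was 0.17 (SE 0.28, 95% interval −0.49 to 0.83; edgeR, adjusted p = 0.932), and without control library 2 it turned to −0.07.

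HNRNPD, whose isoforms differ in their effect on decay (ENSG00000138668, chromosome 4, 82352498 to 82374503, minus strand), measured 334, 513 and 317 CPM in control libraries 1 to 3. It measured 351, 308 and 303 CPM in bile acid libraries. Here control 2 was the highest of all 6 libraries, and bile acid library 1 lay between the other controls and control 2. The log2 fold change was −0.27 (SE 0.24, 95% interval −0.83 to 0.28; edgeR, adjusted p = 0.911) and −0.01 without control library 2. An antisense gene that overlaps the start of HNRNPD, AC124016.1, cannot be told from it if reads were counted without strand. The table sums isoforms, so the AUF1 isoforms were not separated.

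**Figure D2:**
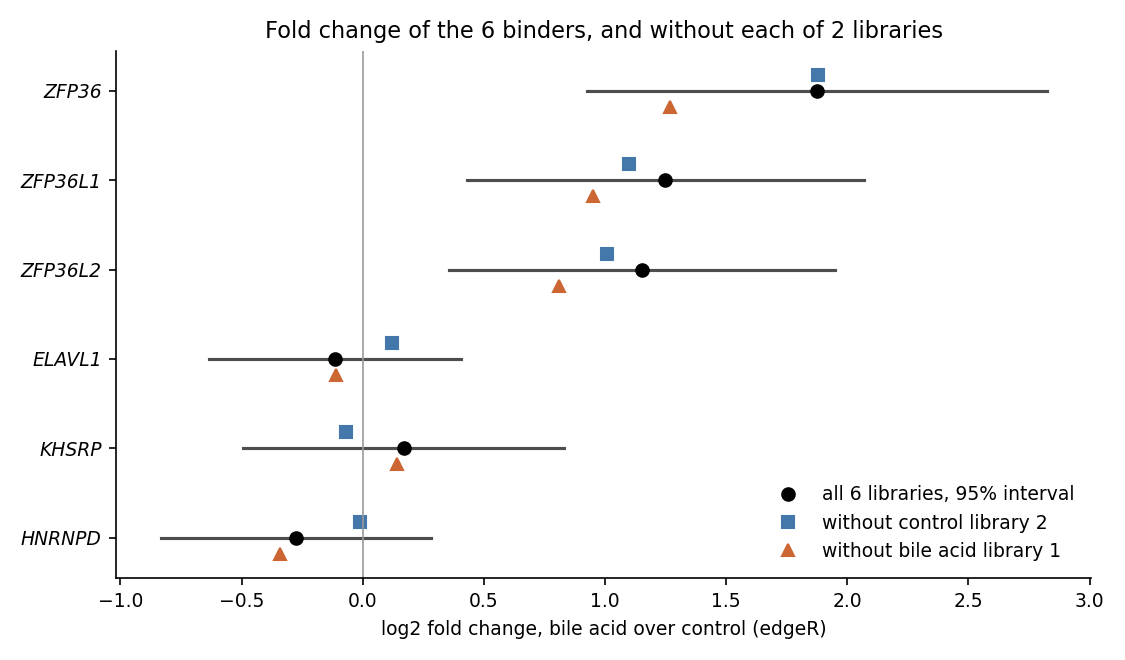
Log2 fold change of bile acid over control (x axis) for the 6 mRNAs, with the 95% interval from edgeR on all 6 libraries (black), and the value without control library 2 (blue squares) and without bile acid library 1 (orange triangles). The 3 family members stay above 0 in each of these fits, with ZFP36 at 1.87, 1.88 and 1.27, while ELAVL1 and KHSRP change sign without control library 2.

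The members' behaviour in control 2 differed by gene and was not ordered by length alone. Against the mean of controls 1 and 3, control 2 had a log2 difference of −0.02 for ZFP36 (2010 bp), −0.52 for ZFP36L2 (3696 bp), −0.95 for KHSRP (4563 bp), −0.53 for ZFP36L1 (5160 bp), 0.60 for ELAVL1 (6956 bp) and 0.66 for HNRNPD (6981 bp). The longest members, ELAVL1 and HNRNPD, were thus higher in a library where long genes were mostly lower. With the length trend removed from each library the log2 fold changes were 2.05 for ZFP36, 1.22 for ZFP36L1, 1.18 for ZFP36L2, −0.25 for ELAVL1, 0.16 for KHSRP and −0.42 for HNRNPD.

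Compared per length, the ZFP36 family was the lesser part of these binders in control cells. The deposited FPKM, a level scaled by gene length and library depth, averaged 83.9 ± 28.9 for KHSRP, 48.0 ± 12.7 for HNRNPD, 24.3 ± 5.86 for ELAVL1, 12.7 ± 3.52 for ZFP36L2, 7.30 ± 2.16 for ZFP36L1 and 3.17 ± 0.0962 for ZFP36 in control libraries (SD, n = 3). KHSRP and HNRNPD overlapped in that order over the control libraries, as did ZFP36L2 and ZFP36L1, while each other pair of neighbours was separate. In bile acid libraries the FPKM averaged 92.6 ± 6.89 for KHSRP, 39.1 ± 3.12 for HNRNPD, 27.8 ± 11.2 for ZFP36L2, 22.2 ± 0.915 for ELAVL1, 17.0 ± 6.71 for ZFP36L1 and 11.4 ± 6.85 for ZFP36. There the ranges of all neighbours below KHSRP overlapped. In bile acid library 1 ZFP36L2 stood at 39.5 FPKM beside HNRNPD at 42.7 FPKM, and ZFP36L1 at 23.4 FPKM above ELAVL1 at 22.1 FPKM.

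The FPKM of the 3 family members added up to 29.3, 18.1 and 22.1 in controls 1 to 3. In the bile acid group the sums were 82.3, 34.5 and 52.0. Every bile acid sum was above every control sum, which follows from the same order in each of the 3 members and adds nothing to it. ZFP36L2 held the greatest part of the sum in each library, between 48.1% and 56.3%. The share of ZFP36 was 10.7%, 17.0% and 14.8% in control and 23.5%, 20.6% and 15.1% in bile acid libraries, where library 3 lay below control 2. The mean share was higher by 5.55 percentage points (two-sided exact permutation test, p = 0.20, adjusted over the 5 ratios and shares p = 0.25). The difference was 3.68 points without bile acid library 1 and reached 7.85 points without bile acid library 3. With 3 libraries against 3 the smallest p this test allows is 0.10.

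**Figure D3:**
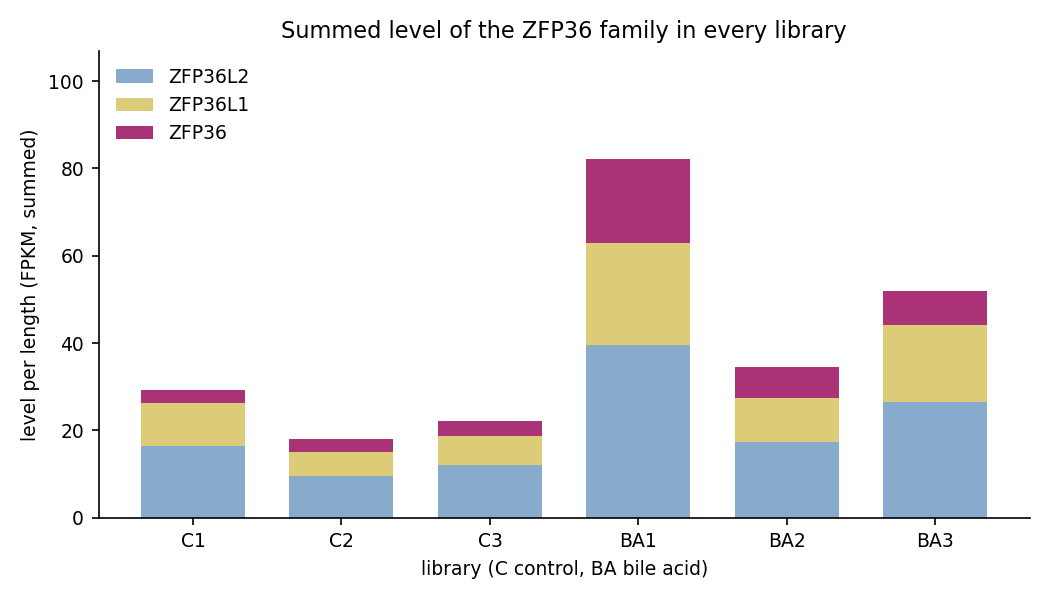
Summed level of ZFP36L2 (blue), ZFP36L1 (yellow) and ZFP36 (purple) in deposited FPKM (y axis, from 0) in each control (C1 to C3) and bile acid (BA1 to BA3) library. The sums are 18.1 to 29.3 in control and 34.5 to 82.3 in bile acid libraries, and ZFP36L2 is the tallest part of every bar.

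Ratios within a library do not depend on its scaling. The log2 ratio of ZFP36 to ELAVL1 counts took the values −4.45, −5.12 and −4.56 in controls 1 to 3. Under bile acid exposure the values were −1.99, −3.50 and −3.23. The groups did not overlap, and the mean difference of 1.80 gave the smallest p the design allows (exact permutation test, p = 0.10, adjusted p = 0.25). This difference was 1.60 without control library 2 and 1.34 without bile acid library 1. The log2 ratio of the summed family FPKM to ELAVL1 FPKM averaged −0.07 ± 0.67 in control and 1.25 ± 0.66 in bile acid libraries (SD, n = 3; exact permutation test, p = 0.10, adjusted p = 0.25). The groups nearly touched, with the highest control, library 1, at 0.567 and the lowest bile acid library, number 2, at 0.574. The difference of 1.32 was 0.97 without control library 2 and 1.00 without bile acid library 1. Within the family, the log2 ratio of ZFP36 to ZFP36L1 counts differed by 0.52 (exact permutation test, p = 0.30, adjusted p = 0.30) and that of ZFP36 to ZFP36L2 by 0.61 (exact permutation test, p = 0.20, adjusted p = 0.25). Both ratios overlapped between the groups, so a greater difference for ZFP36 than for its relatives was not established. Without control library 1 the difference of the ratio to ZFP36L1 was 0.29 and that to ZFP36L2 0.40, and without bile acid library 1 they were 0.33 and 0.45.

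ZFP36L1 and ZFP36L2 were nearest to each other across the 6 libraries. Likeness was the root mean square difference of log2 CPM centred per gene, over 11393 other protein-coding genes averaging 5 CPM or more, and is a description without a test. The distance between ZFP36L1 and ZFP36L2 was 0.080, the smallest of all for either gene. ANXA1 (annexin A1), GPRC5A, FOXC2 and TGFBR2 (a TGF-β receptor) filled the next 4 places of both, at 0.0945 to 0.155 from ZFP36L1 and 0.114 to 0.149 from ZFP36L2. ZFP36 had other nearest genes, at larger distances. Among the 5 nearest were ZC3H12A at 0.217, IER3 at 0.287, DUSP1 at 0.305 and MIDN at 0.311, while ZFP36L2 ranked 24 and ZFP36L1 26. ZC3H12A, also called regnase-1, is an endonuclease that cuts cytokine mRNAs. It measured 3.23, 2.35 and 3.54 CPM in control and 15.6, 5.78 and 6.08 CPM in bile acid libraries 1 to 3. All points of a profile come from the same 6 libraries, and bile acid library 1 is the highest point of each profile.

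**Figure D4:**
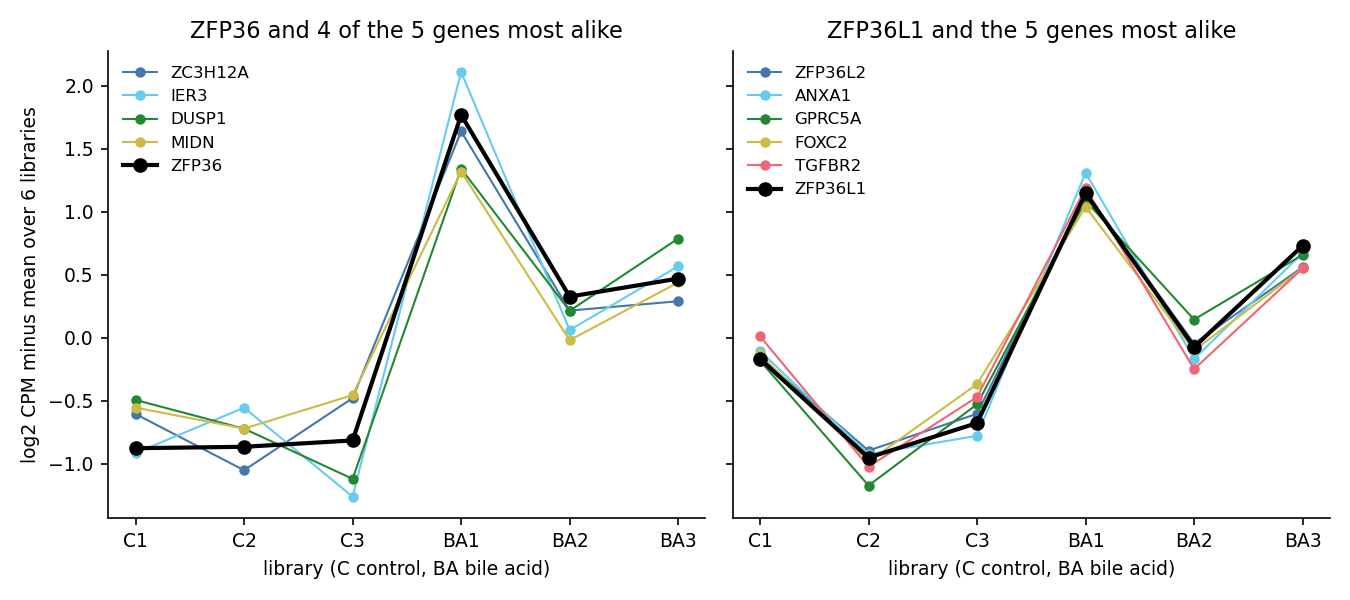
Log2 CPM minus the gene's mean over 6 libraries (y axis) for ZFP36 (left, black) with 4 of its 5 most alike genes and ZFP36L1 (right, black) with its 5 most alike genes, in color; lines only join the points of 1 gene. ZFP36 is flat over the controls, from −0.88 to −0.82, whereas ZFP36L1 varies there from −0.95 to −0.17, and both peak in bile acid library 1.

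The promoters of the early gene ZFP36 and of ZFP36L1 are shown because both mRNAs were higher in the bile acid libraries but had different nearest genes. They are RefSeq sequences on GRCh38.p14 from 250 bases before to 50 after a start, and 4 of the 6 members matched, with 2 entries for ZFP36L1. Each was searched on both strands for TATAA (TATA box), GGGCGG (GC box), TGACGTCA (cAMP response element), TGANTCA (AP-1), GCGNGGGCG (EGR), CCAAT and the CArG box of serum response factor, with matches in capitals. GCGNGGGCG and GGGCGG can overlap. The ZFP36 window, chr19:39406597-39406896 on the plus strand, held 1 TATAA, 29 bases before the start, and 3 GGGCGG. The ZFP36L1 window nearer to the coding sequence, chr14:68793367-68793666 on the minus strand, held 1 TGACGTCA and 1 GCGNGGGCG.
ZFP36 promoter: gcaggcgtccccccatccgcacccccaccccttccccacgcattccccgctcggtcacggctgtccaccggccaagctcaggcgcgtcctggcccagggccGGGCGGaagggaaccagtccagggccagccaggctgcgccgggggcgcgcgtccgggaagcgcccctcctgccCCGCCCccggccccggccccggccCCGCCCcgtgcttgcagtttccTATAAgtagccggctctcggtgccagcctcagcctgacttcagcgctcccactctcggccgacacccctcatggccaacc
ZFP36L1 promoter: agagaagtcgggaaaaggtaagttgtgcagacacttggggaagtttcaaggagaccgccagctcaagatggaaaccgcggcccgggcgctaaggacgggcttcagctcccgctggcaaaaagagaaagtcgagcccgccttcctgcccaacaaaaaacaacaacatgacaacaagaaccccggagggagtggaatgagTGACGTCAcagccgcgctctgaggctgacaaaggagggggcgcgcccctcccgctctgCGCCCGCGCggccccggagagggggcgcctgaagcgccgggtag

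Over all 35116 promoter windows of this length, TATAA occurred in 20.4%, GGGCGG in 45.0%, TGACGTCA in 1.85%, TGANTCA in 7.71%, GCGNGGGCG in 9.43%, CCAAT in 34.6% and the CArG box in 1.29%. The other ZFP36L1 window held 1 CCAAT alone, that of KHSRP 2 GGGCGG and 3 CCAAT, and that of HNRNPD 1 TATAA, 1 GGGCGG and 1 CArG box. These are matches of letters within the windows, with no measured binding.

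The list of other AU-rich element binders also holds mRNA regulators of other kinds, among them the endonuclease ZC3H12A and RC3H1. In this list ZC3H12A had the largest difference. Of 18 listed genes 17 were tested and 0 were called in edgeR. The median log2 fold change was 0.07, against −0.01 over all 17743 genes, with 12 above 0, and in 4 of 17, ZC3H12A, RC3H1, FUBP1 and HNRNPA0, every bile acid library was above every control, against 5.29% of all genes tested. ZC3H12A had a log2 fold change of 1.59 (edgeR, adjusted p = 0.911; DESeq2, adjusted p = 0.295). RC3H1, or roquin, which represses mRNAs through stem-loops, had 0.59, and FUBP1, a relative of KHSRP, 0.47. ELAVL3, a mostly neuronal relative of ELAVL1, had 0.64 with overlapping groups at 0.560 to 1.44 CPM in control and 1.32 to 2.40 CPM in bile acid libraries, and HNRNPA0 had 0.13. TIA1, a stress granule protein, had 0.17, its relative TIAL1 −0.15, and HNRNPDL, a relative of HNRNPD, −0.08. Without control library 2 the list median was 0.14, with 15 of 17 above 0, against 0.005 over all genes tested.

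The machinery that the ZFP36 proteins recruit showed smaller differences. Of 19 genes of deadenylation, all tested, 0 were called, the median was 0.14 and 15 were above 0. CNOT1, the scaffold of the CCR4-NOT complex, had a log2 fold change of 0.26 with 74.0 CPM in control 2 against 383 CPM and 385 CPM in controls 1 and 3, so that its value rests on that library. CNOT7, a deadenylase subunit, had −0.03. Of the anti-proliferative adaptors that bring the deadenylase to mRNAs, TOB1 had 0.57, TOB2 0.55, BTG2 0.62 and BTG1 0.25, and none was called. TOB1 measured 28.1, 25.4 and 28.6 CPM in control and 46.7, 34.3 and 40.6 CPM in bile acid libraries, without overlap. TOB2 did not overlap either, but control 2 was low at 45.6 CPM against 79.3 and 91.4 CPM in controls 1 and 3. BTG2 stood at 30.0 CPM in bile acid library 1, while bile acid libraries 2 and 3, at 13.3 and 15.5 CPM, lay inside and just above the control range of 9.89 to 15.3 CPM. BTG1 overlapped between the groups. The median of the deadenylation list was 0.04 without control library 2.

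Of 20 genes of decapping, exonucleases and the exosome, all tested, 0 were called, the median was −0.07 and 13 were below 0. XRN1, the cytoplasmic 5′ to 3′ exonuclease, had 0.26 and the decapping enzyme DCP2 0.13. The exosome subunits EXOSC8, EXOSC1 and EXOSC4 had −0.60, −0.55 and −0.80. Control 2 was the highest library for each of these 3, with EXOSC4 at 44.6 CPM there against 10.3 to 14.7 CPM in the other 5. Without control library 2 the list median was 0.06, of the opposite sign. Of 15 kinases, phosphatase subunits and 14-3-3 genes, all tested, 0 were called and the median was 0.03, with 10 above 0. Without control library 2 this median was 0.11, with 14 above 0, against 0.005 over all genes tested. MAPK14, or p38α, had 0.25, MAPKAPK2, or MK2, which phosphorylates ZFP36, −0.11, YWHAZ, a 14-3-3 protein, 0.37, and YWHAH −0.32. These mRNA levels do not measure the activity of the kinases.

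Of 36 mRNAs known to carry AU-rich elements, 29 were tested, 0 were called in edgeR and 6 in DESeq2 (against 0.107% of all genes), all 29 had a log2 fold change above 0, and the median was 1.01. In 15 of 29 every bile acid library was above every control, against 5.29% of all genes. The list holds many immediate-early genes and was chosen with their values in these libraries known, so its direction is not independent evidence. FOS, an AP-1 subunit, had a log2 fold change of 3.32, JUNB, another subunit, 2.22, DUSP1, a MAP kinase phosphatase, 1.61, MYC 1.34 and CCND1, or cyclin D1, 1.38. VEGFA, an angiogenic growth factor, had 0.29. CCND1 measured 19.1, 14.7 and 15.0 CPM in control and 69.7, 20.8 and 36.6 CPM in bile acid libraries.

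Several cytokine mRNAs classically tied to ZFP36 were scarce in these cells. TNF and CSF2 had 0 counts in every library, and CXCL8 lay between 0 and 0.288 CPM in control and between 0.183 and 0.999 CPM in bile acid libraries. IL6 measured 0.288, 0.504 and 0.213 CPM in control and 3.42, 0.658 and 0.243 CPM in bile acid libraries, a log2 fold change of 2.11. PTGS2, the inducible cyclooxygenase, measured 1.51, 0 and 1.45 CPM in control and 10.2, 0.585 and 1.25 CPM in bile acid libraries, a log2 fold change of 1.98. Both groups overlapped for either gene, and for PTGS2 bile acid libraries 2 and 3 lay below controls 1 and 3, so these fold changes rest on bile acid library 1. Other cytokines of the list were more abundant. IL11 measured 5.64, 4.87 and 6.39 CPM in control and 11.5, 7.02 and 8.21 CPM in bile acid libraries, without overlap and with a log2 fold change of 0.66. LIF measured 4.67, 1.74 and 3.37 CPM in control and 17.8, 3.36 and 4.00 CPM in bile acid libraries, with overlap and a log2 fold change of 1.35. With bile acid library 1 left out, the median of the target list was 0.44, with 26 of 29 tested genes above 0, and without control library 2 it was 1.02 with the same count above 0. Without both libraries, a setting added after seeing the data, the median was 0.49, with 21 of 28 tested genes above 0 and 7 below.

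**Figure D5:**
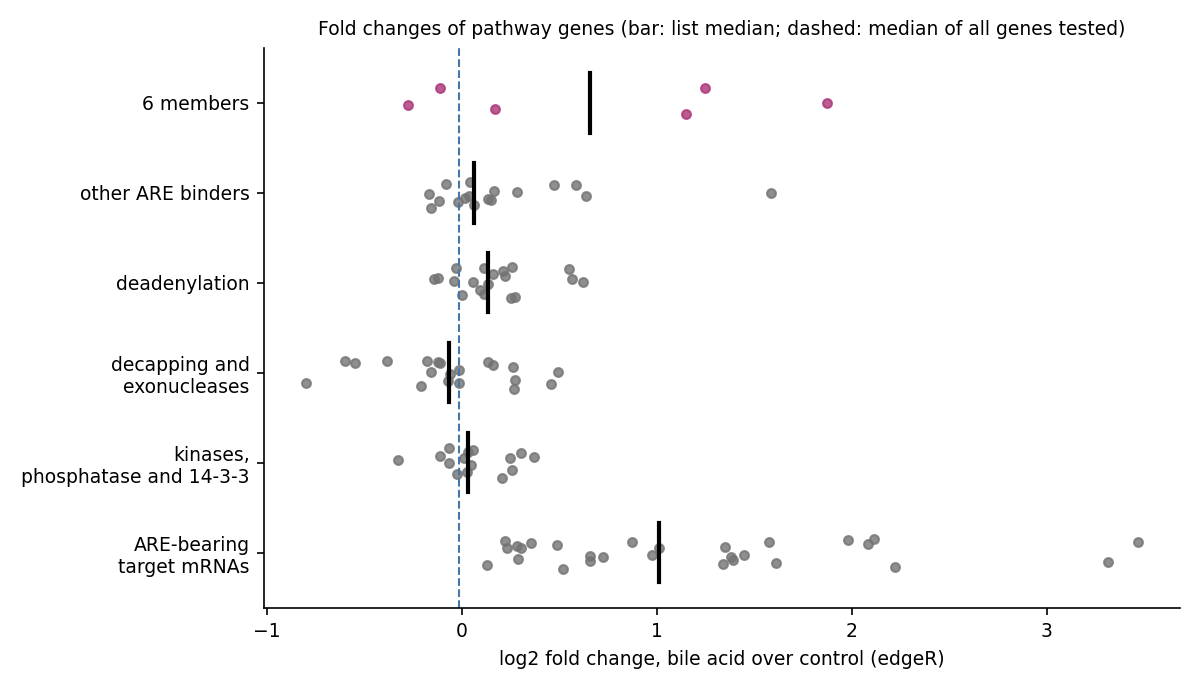
Log2 fold change of bile acid over control (x axis, edgeR) for the 6 members (purple) and the tested genes of 5 further lists (grey; 28 of the 29 AU-rich targets are drawn), with each list's median as a black bar and the median of all genes tested, −0.01, as a dashed line; vertical scatter within a list has no meaning. The medians of the binder, deadenylation, decay enzyme and kinase lists lie between −0.07 and 0.14, and that of the AU-rich target list at 1.01.

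The count of TATTTAT in the 3′ untranslated region was set against the fold change over all tested coding genes. The median log2 fold change was −0.04 over 9694 genes with no core, 0.07 over 2695 with 1, 0.11 over 1046 with 2 and 0.11 over 846 with 3 or more, the class that holds the ZFP36 family and ELAVL1. The median exonic length rose with the class, from 4456 to 8446 bp. Without control library 2 the medians were 0.02, 0.00, 0.01 and −0.04 in the same order. With the length trend removed they were −0.05, 0.03, 0.04 and 0.02.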

How the data were processed

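RNA was sequenced from 6 libraries as paired reads, per the labels' protocols. The submitters' processing notes name HISAT2 2.0.5, featureCounts, DESeq2 and GRCh38, with no role or order. The annotation and whether strand was used are not given in the sources used here. Gene coordinates in the count table equal those of GENCODE release 29 for 99.98% of genes.

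The authors deposited whole-number read counts per gene, FPKM values, and normalized counts, a signal equal to whole reads divided by 1 factor per library (100% of values whole within 0.001). The deposited comparison gives, per the file headers, a log2 fold change, a test score, and a p-value for each gene. Not used here were the deposited gene set results and 2 value columns that match no library.

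From the counts, edgeR 4.0.16 (R 4.3.3) was run with TMM scaling, filterByExpr and its quasi-likelihood test over all genes, Benjamini-Hochberg adjusted, threshold 0.05, without covariates. The SE is the log2 fold change divided by the root of F. Log2 CPM used a prior count of 2. Ratios were tested by exact permutation in Python 3.11.15. Scripts were tested on simulated data. Limma 3.58.1 and DESeq2 1.42.0 served as alternatives, beside other scalings, filters, pseudocounts, a replicate block, removal of the length trend, each library left out, and edgeR on the whole reads recovered for 31530 genes, which called 0.

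Named were all members, fixed genes of each list, the 3 smallest p per list, and the 5 most alike genes, of which 1 is not reported here; others, among them TNF, CSF2, IL11, LIF, ELAVL3, HNRNPA0, BTG1 and marker genes, were chosen after their values were seen. Members and lists were chosen with earlier results of these data known.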

Additional observations from a re-analysis of the deposited data

How the results depend on the processing

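Over 23 alternatives the log2 fold change stayed above 0 for ZFP36 (1.26 to 2.14), ZFP36L1 (0.79 to 1.53) and ZFP36L2 (0.66 to 1.41). An adjusted p under 0.05 occurred once for each. For ZFP36 it was with DESeq2 (1.88, adjusted p = 0.0242), and for ZFP36L1 (1.10) and ZFP36L2 (1.01) with DESeq2 without control library 2, a setting added after seeing the data. In edgeR the lowest adjusted p of ZFP36 was 0.0555, without control library 2 and bile acid library 1, also added after seeing the data, with a log2 fold change of 1.26.

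The sign of ELAVL1 turned without control library 2, to 0.12 in edgeR and in DESeq2, 0.12 without bile acid library 1 as well, and 0.14 with the length trend removed. The sign of KHSRP turned in the same settings, to −0.07, −0.07, −0.11 and −0.08, and HNRNPD reached 0.00 in the last. Leaving out each library in turn gave −0.24 to 0.12 for ELAVL1, −0.07 to 0.34 for KHSRP and −0.39 to −0.01 for HNRNPD. None of these 3 was called in any alternative.

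Against 0 genes called in edgeR with all libraries, where 588 had an unadjusted p under 0.05, DESeq2 called 19 and limma-voom 0. The count was 0 to 1 with each library left out, the 1 being without control library 2. DESeq2 called 158 without control library 2 and 1 without bile acid library 1, and edgeR 14 without both.

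With the replicate number as a block the log2 fold changes were 1.72 for ZFP36, 1.20 for ZFP36L1 and 1.11 for ZFP36L2, with an adjusted p of 0.610, 0.548 and 0.548 (edgeR), and 0 genes were called. Deviations from the group mean correlated across genes at 0.307, 0.382 and 0.098 between same-numbered libraries 1, 2 and 3. For differently numbered libraries the correlations ranged from −0.413 to 0.189, the highest above the 0.098 of replicate 3. These deviations sum to 0 within a group, so the correlations depend on each other. With the block the SE of ZFP36L1 was 0.199, against 0.350 without it. The labels state no pairing, so the main fit has no block, and whether the replicates are paired was not tested. The 3 ratios, the family share and the family level over ELAVL1 kept their direction with each library left out. Exchanging counts and FPKM, or using the replicate block, cannot change these mean differences, so those alternatives are no check of direction. The share of ZFP36 in the family was higher by 3.68 to 7.85 percentage points with each library left out. Depth limits CXCL8, which had 0 to 28 counts and was not tested.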
